A study of Saccharomyces cerevisiae with 12 samples.

Results

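The 67 genes described here encode proteins of the yeast mitochondrial ribosome. They were chosen by name alone, as the MRPL, MRPS, MRP, RSM and IMG genes without MRP8, from 6412 genes and other features that were counted in all 12 samples. The name rule used no measured value. Of these, 39 were placed in the large subunit and 28 in the small subunit. The MRPL, IMG and RSM genes were placed by name, and the MRP and MRPS genes by the annotation of the R64 assembly. Of the proteins, 27 belong to families found in all ribosomes, 14 to families shared with bacterial ribosomes and 25 to families specific to mitochondrial ribosomes, and RSM22 is annotated as a methyltransferase.

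Mitochondrial ribosomes translate the few messages of the mitochondrial genome, most of which encode membrane subunits of the respiratory chain and of ATP synthase. Nearly all of their proteins are encoded in the nucleus, made in the cytosol and imported, while the ribosomal RNAs are made inside the organelle. In budding yeast the messages of many of these proteins are bound by Puf3, a Pumilio-family protein that recognises a short motif in the 3' untranslated region and affects the decay and the translation of its targets depending on the carbon source.

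Polyadenylated RNA was sequenced from 3 groups of W303 budding yeast, with 4 replicates each, to ask whether cells that replicate in G1 keep a G1-like transcriptome. All cultures were grown in YP medium with 2% raffinose and adenine and were arrested in G1 with α-factor for 2.5 h. CDK/DDK bypass G1 cells (strain YKR1503), in which the galactose-inducible pGAL1-10 promoter drives Dbf4, Dpb11 and the phosphomimetic allele sld2-T84D, and wild-type G1 cells (strain YKR1500) then received 2% galactose for 3 h while still arrested. Wild-type S cells (strain E3087) were washed and released into fresh medium for 30 min. The methods give E3087 as an EdU-incorporating background on which strains were built unless stated otherwise. Each group is a different strain, so strain, treatment and time in arrest cannot be told apart. The labels do not say whether the release medium held galactose, and GAL1, which galactose induces, was at 5517 to 5870 TPM in wild-type S and at 5484 to 6422 TPM in wild-type G1.

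The depth of the 12 samples was 8162140 to 10545835 read pairs on genes, of which 135 to 1842 fell on any of the 67 genes, so that all 67 passed the filter on low counts. The samples had the transcripts of mating type a, with MFA2 at 17195 TPM in wild-type G1 and STE3 of the opposite mating type at 3.42 TPM. The pheromone, S phase and induced markers followed the labels: the 4 pheromone genes on the list had log2 fold changes of -6.55 to -6.06 in wild-type S against wild-type G1, the 4 S phase markers were higher by 2.08 to 4.03, and the 3 induced genes were higher in the bypass cells by 3.16 to 6.57. The 3 G2/M markers on the list were higher in wild-type S as well (CLB2 0.73, CDC5 1.19, SWI5 3.09). In the bypass cells against wild-type G1 they did not pass the test. The S phase markers also moved in the bypass cells against wild-type G1: HTB1 (1.36), RNR1 (0.61) and CLB5 (0.25) rose and CLN2 (-0.31) fell, and their part in the changes described below was not tested. Within every group the replicates formed 2 similar pairs, 1 with 2 and 3 with 4. The mean chi-square per gene was 1.49 to 2.42 within these pairs and 3.01 to 46.2 between them, and the pairs of wild-type G1 stood furthest apart, at 42.9 to 46.2. Nothing in the labels says whether replicates came from separate cultures, so p-values measure only the spread between these samples, and the results that rest on the wild-type G1 pairs are given for each pair below.

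The Puf3 motif, which the name rule did not use, was searched for in the genome sequence as TGTANATA on the coding strand in the 200 bases after each stop codon. It was present in 66 of the 67 genes (98.5%) and in 844 of all 6002 nuclear protein-coding genes (14.1%). The exception was RSM22. On the opposite strand of the same windows the motif was found in 12 of the 67 (17.9%) and in 13.2% of all genes. The sites below come from the R64 assembly of RefSeq, the build called sacCer3 to which the reads were aligned, and each stretch of 28 bases is printed from 5′ to 3′ on the strand of its gene with the motif in capitals. They belong to genes that moved most in the comparisons or against the rest.
MRPS5 first site, chr2:722311-722338, plus strand: tgaaatactaTGTACATAcacacgcacc
MRPS5 second site, chr2:722373-722400, plus strand: taataataccTGTAAATAtctcaacata
MRPS17, chr13:636218-636245, minus strand: cactacactcTGTAAATAtatacaacta
MRPL7, chr4:937565-937592, plus strand: ccattcgtcaTGTAAATAtataaactgt
MRPL37, chr2:741639-741666, plus strand: ttggtatcctTGTAAATAaatatgtgtg
MRPS18, chr14:58861-58888, plus strand: tatatattcgTGTAAATAattcgatttt
MRP10, chr4:372581-372608, plus strand: gtcatggcctTGTATATAcaaattaaat
RSM10, chr4:540463-540490, plus strand: atttcgtactTGTAAATAaaataggtga
RSM19 first site, chr14:695025-695052, minus strand: agggatctagTGTATATAgatttctaga
RSM19 second site, chr14:694997-695024, minus strand: tgatatatcaTGTAAATAagatcaagcc
RSM19 last site, chr14:694969-694996, minus strand: agactcgggcTGTATATAtatatatata

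The 66 genes held 80 sites, of which 36 read TGTAAATA, 26 TGTATATA, 17 TGTACATA and 1 TGTAGATA. The sites began 8 to 165 bases after the stop codon with a median of 54, and 73 of them lay within the first 100 bases. RSM19, one of the genes that will stand out below, had 3 sites, as printed above, and 13 genes had more than 1. With a C required at the position 2 bases before the motif, a base that favours Puf3 binding, 53 of the 67 genes (79.1%) still had a site, against 4.22% of all genes. A motif match is a description of the sequence and does not show that Puf3 bound the message in these cells.

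**Figure D1:**
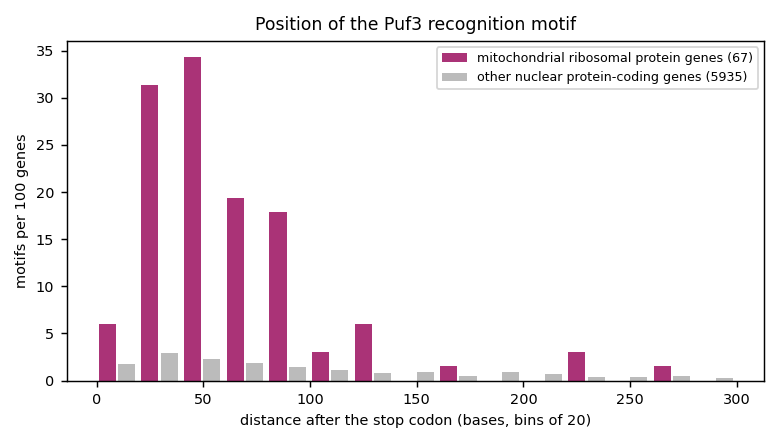
Number of Puf3 recognition motifs per 100 genes (y axis) in bins of 20 bases after the stop codon (x axis), for the 67 mitochondrial ribosomal protein genes (purple) and the other 5935 nuclear protein-coding genes (grey). The purple bars are tallest between 21 and 100 bases, reaching 34.3 per 100 genes at 41 to 60 bases, while the grey bars do not pass 2.92.

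Promoter motifs did not set the genes apart in this way. AATTTT, searched for on both strands from 250 bases before to 50 after the start codon, was found in 28 of the 67 (41.8%) and in 51.7% of all genes. CCAAT, the core of the site of the Hap2/3/4/5 complex, which activates respiratory genes, was found in 27 of the 67 (40.3%) and in 43.3% of all genes. The genes were short, with a median length of 699 bases against 1203 for all 6021 protein-coding genes, and 66 of them had a single exon, MRPL44 being the exception. They lay on 14 chromosomes, with 12 on chromosome 4 and 9 on chromosome 14, and the 1 pair of direct neighbours was RSM19 and MRPS12, on the same strand of chromosome 14 with 229 bases between them. Every 42-base window of all 67 genes was unique in the genome, and MRPL19 shared part of its sequence with another annotated gene on the same strand, where reads cannot be assigned.

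Levels are compared between genes as length-corrected transcript shares (TPM), which divides counts by gene length, and between samples as counts scaled by the TMM-normalised library size (CPM), the scale of the tests. In bulk samples a lower share of a message in all RNA, fewer cells that make it and less RNA per cell cannot be told apart. Over all 12 samples the mean level ran from 40.2 TPM for RSM22, a methyltransferase-like protein of the small subunit, to 283 TPM for MRPS12, the counterpart of the bacterial decoding-centre protein S12. Wild-type G1 had a median over the 67 genes of 83.5 ± 7.86 TPM (SD, n = 4), the bypass cells of 78.8 ± 0.841 TPM and wild-type S of 126 ± 12.1 TPM. Over the genes that passed the filter on low counts and had a length, the medians were 57.7, 57.4 and 47.6 TPM. The 67 genes thus differed in level by several fold within each group, and the spread of log2 TPM over them had an SD of 0.54 in wild-type G1, 0.58 in the bypass cells and 0.45 in S cells.

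The summed level of the 67 genes showed the pairs of replicates again. In wild-type G1 it was 7160, 6856, 6120 and 6079 TPM in replicates 1 to 4. The bypass cells had 6044, 6168, 6201 and 6115 TPM, and wild-type S had 9909, 9865, 8356 and 8503 TPM. Wild-type S lay above both G1 groups in all replicates, while all bypass replicates lay below replicates 1 and 2 of wild-type G1 and close to its replicates 3 and 4. The summed level in wild-type S was 1.40 times that in wild-type G1 in TPM and 1.60 times in CPM, and the 137 cytosolic ribosomal protein genes, which share the total that TPM divides, went from 144320 ± 20972 TPM (SD, n = 4) to 227730 ± 3390 TPM.

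**Figure D2:**
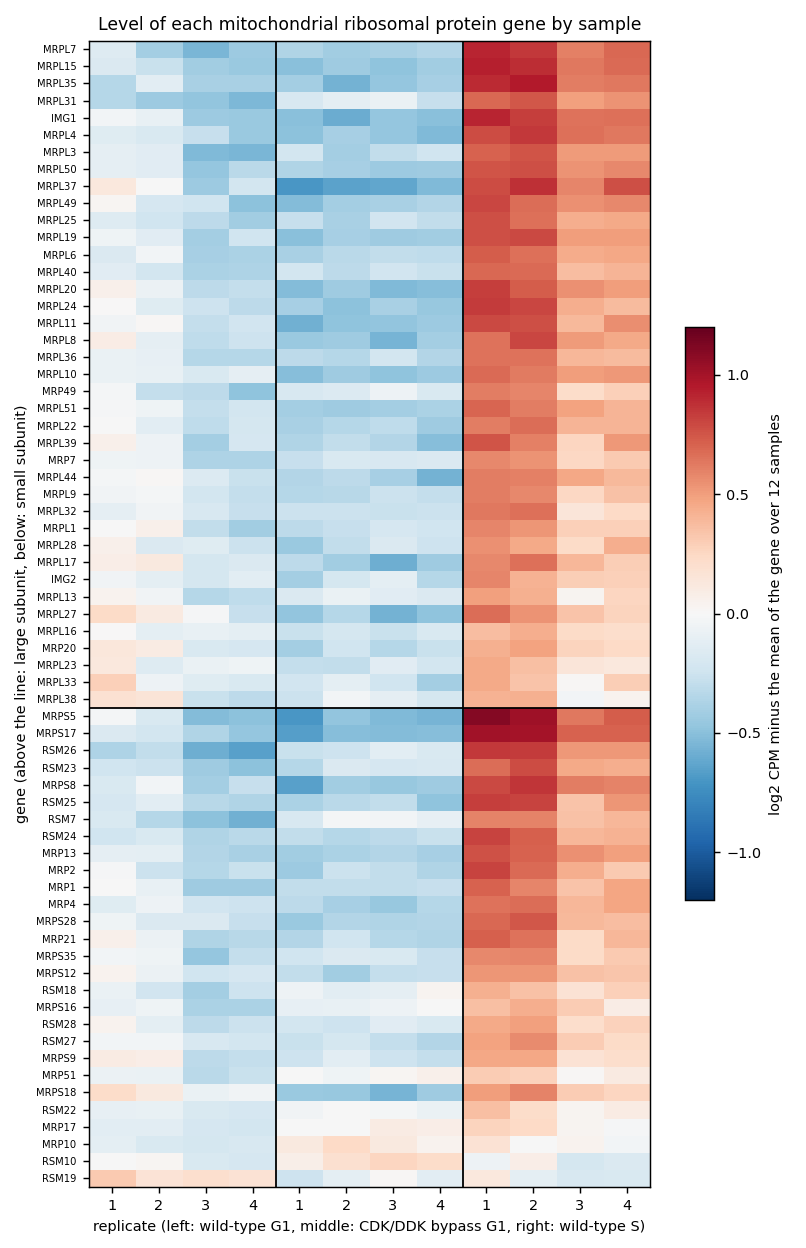
Level of each of the 67 genes (rows) in the 12 samples (columns, 4 replicates each of wild-type G1, CDK/DDK bypass G1 and wild-type S), as log2 CPM minus the mean of the gene over all samples, with the large subunit above the line and the small subunit below it. Wild-type S is red in nearly all rows and darker in replicates 1 and 2 than in 3 and 4. RSM19 and RSM10 in the bottom rows do not follow the rest.

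Wild-type S and wild-type G1 were compared to place these genes in the normal entry into S phase. The messages of nearly all these genes were higher in S: 65 of the 67 genes rose, RSM19 fell and RSM10 did not pass the test (edgeR quasi-likelihood test, Benjamini-Hochberg adjusted p below 0.1 over all genes). Among all 5662 genes tested, 40.4% rose and 43.3% fell. The median log2 fold change was 0.70 over the 67 genes and -0.02 over all genes tested, and the replicates of the groups did not overlap for 61 of the 65 that rose, where 35.8% of all genes tested were higher without overlap. RSM19 was lower without overlap, as were 38.1% of all genes tested.

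In the large subunit all 39 genes rose, with a median log2 fold change of 0.70 and a range from 0.27 to 1.15. MRPL7, the counterpart of the bacterial 5S rRNA-binding protein L5, rose most in this subunit. It was at 73.3, 61.4, 55.9 and 60.3 CPM in the replicates of wild-type G1 and at 154, 147, 124 and 132 CPM in those of wild-type S. The highest G1 replicate was far below the lowest S replicate, and the difference was 2.22-fold (log2 fold change 1.15 ± 0.08 SE, edgeR adjusted p = 2.54e-08).
The next largest rises in this subunit without overlap were those of MRPL15 (log2 fold change 1.11 ± 0.08 SE) and MRPL35 (1.09 ± 0.09 SE), both from families specific to mitochondrial ribosomes. MRPL35 stood at 53.6 to 64.3 CPM in wild-type G1 and at 107 to 136 CPM in wild-type S. IMG1, the counterpart of bacterial L19, doubled from 50.6 ± 7.62 to 102 ± 9.14 CPM (SD, n = 4). The smallest rise was that of MRPL38.

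In the small subunit 26 of 28 genes rose, with a median log2 fold change of 0.65. MRPS5, the counterpart of bacterial S5, which borders the messenger RNA entry channel, had the largest rise of all 67 genes. Its level was 55.5, 49.8, 39.5 and 40.3 CPM in wild-type G1 and 122, 114, 87.4 and 93.7 CPM in wild-type S. Every S replicate was above every G1 replicate, by 2.25-fold in the fit (log2 fold change 1.17 ± 0.12 SE, edgeR adjusted p = 1.21e-06).
MRPS17, the counterpart of the early-assembling rRNA-binding protein S17, was at 53.6, 51.6, 47.0 and 43.7 CPM in wild-type G1 and at 121, 120, 98.6 and 98.3 CPM in wild-type S. The groups did not overlap, and replicates 1 and 2 were the higher ones in both. Its log2 fold change was 1.16 ± 0.09 SE, close to that of RSM26, a protein specific to mitochondrial ribosomes, at 1.16 ± 0.10 SE.

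The small subunit also held the genes that did not rise or rose least. RSM19, the counterpart of bacterial S19, a protein of the head of the subunit, was at 32.8, 29.5, 30.5 and 29.7 CPM in wild-type G1 and at 28.8, 24.4, 23.1 and 23.2 CPM in wild-type S. All S replicates were below all G1 replicates, by a log2 fold change of -0.30 ± 0.08 SE (edgeR adjusted p = 0.00407). Its downstream neighbour MRPS12, by contrast, went from 120 ± 11.1 to 175 ± 13.3 CPM (SD, n = 4) with a log2 fold change of 0.55 ± 0.07 SE.
RSM10, the counterpart of bacterial S10, was at 88.8, 90.2, 78.1 and 77.1 CPM in wild-type G1 and at 85.2, 93.9, 76.6 and 78.9 CPM in wild-type S. The groups overlapped throughout, and the log2 fold change was -0.00 ± 0.07 SE (edgeR adjusted p = 0.997). MRP10, the smallest rise past the threshold, encodes a twin-cysteine protein that is imported with the help of Mia40. It was at 42.2, 40.1, 39.4 and 39.9 CPM in wild-type G1 and at 51.4, 45.5, 47.0 and 44.6 CPM in wild-type S, a log2 fold change of 0.22 ± 0.06 SE (edgeR adjusted p = 0.00323).
The rise of the group held in both pairs of replicates, for which the shares of all genes tested are not given here. With replicates 1 and 2 alone, and with replicates 3 and 4 alone, 65 genes were called higher, with medians of 0.73 and 0.66, and scaled by the spike-in RNA the median was 0.77 where that of all genes tested was 0.05.

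**Figure D3:**
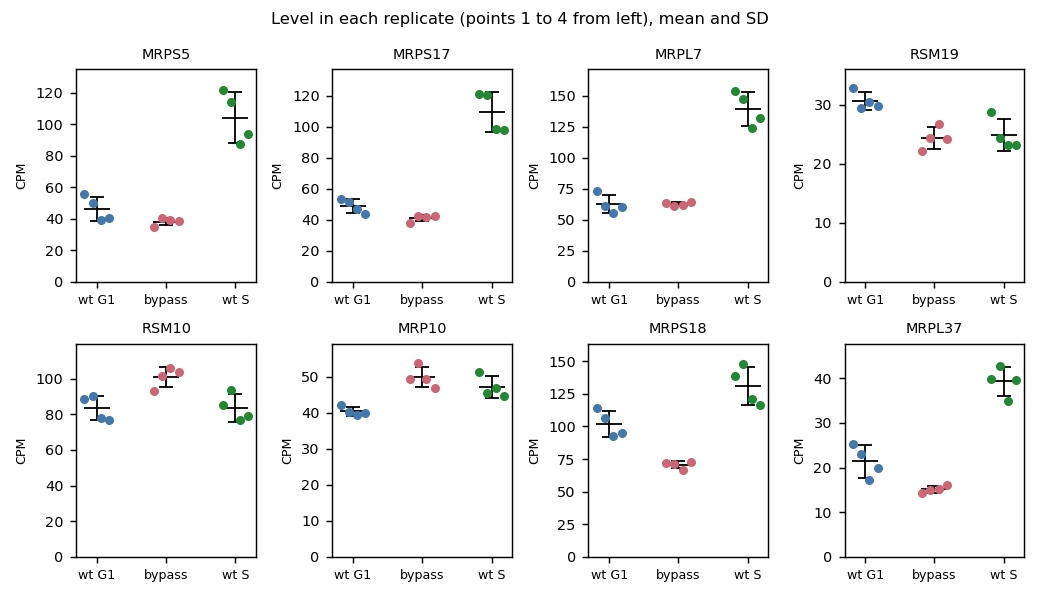
Level in CPM (y axis, from 0) of 8 genes in each replicate of wild-type G1 (blue), CDK/DDK bypass G1 (red) and wild-type S (green). Points are replicates 1 to 4 from left to right, and black bars are the mean and SD of 4 replicates. MRPS5, MRPS17 and MRPL7 stand higher in S than in either G1 group, RSM19 is highest in wild-type G1, RSM10 is highest on average in the bypass cells, and MRPS18 and MRPL37 are lowest in the bypass cells.

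The bypass cells and wild-type G1 were compared to see how these genes differed when replication was induced in G1. The groups also differ in strain and in the induced genes. Changes were small and went both ways: 25 of the 67 genes fell, 8 rose and 34 did not pass the test, with log2 fold changes between -0.53 and 0.30. Among all genes tested, 28.5% fell and 26% rose by the same rule. The median was -0.15 over the 67 genes and -0.02 over all genes tested. The replicates did not overlap for 22 genes that were lower and 7 that were higher, where the shares of all genes tested were 21.9% and 22.1%.

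The large subunit held 17 of the falls and 1 of the rises, and the small subunit 8 of the falls and 7 of the rises. MRPS18, the counterpart of bacterial S11, a protein near the messenger RNA exit, fell most. It was at 114, 106, 92.6 and 95.2 CPM in wild-type G1 and at 71.9, 71.5, 66.6 and 72.8 CPM in the bypass cells. The groups were well apart, and the log2 fold change was -0.53 ± 0.08 SE (edgeR adjusted p = 0.000248).
MRPL37, from a family specific to mitochondrial ribosomes, was at 25.3, 23.2, 17.1 and 19.9 CPM in wild-type G1 and at 14.3, 14.9, 15.1 and 16.1 CPM in the bypass cells. Wild-type G1 replicate 3 came close to the highest bypass replicate without overlap, and the log2 fold change was -0.50 ± 0.11 SE (edgeR adjusted p = 0.00332). The next largest falls without overlap were those of the large-subunit genes MRPL27 (-0.49 ± 0.11 SE), MRPL17 (-0.39 ± 0.10 SE), MRPL11 (-0.36 ± 0.09 SE) and MRPL20 (-0.35 ± 0.09 SE). MRPL11 is the counterpart of bacterial L10, the base of the ribosomal stalk, and the others belong to families specific to mitochondrial ribosomes.

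The largest rise was that of MRP10, which stood at 49.5, 53.7, 49.5 and 47.0 CPM in the bypass cells, above all wild-type G1 replicates given above (log2 fold change 0.30 ± 0.06 SE, edgeR adjusted p = 0.000915). RSM10 was at 93.3, 101, 106 and 104 CPM in the bypass cells. This was above all wild-type G1 replicates, if closely for replicate 1, with a log2 fold change of 0.27 ± 0.07 SE (edgeR adjusted p = 0.00817).
MRPL31, the 1 rise in the large subunit, was at 30.7, 28.8, 28.0 and 26.8 CPM in wild-type G1 and at 33.9, 35.9, 36.8 and 32.0 CPM in the bypass cells, again without overlap. Its log2 fold change was 0.28 ± 0.07 SE (edgeR adjusted p = 0.0081). The other rises were those of RSM26 (0.26), MRP17 (0.21), MRP51 (0.19), RSM7 (0.30) and RSM18 (0.17), and the last 2 overlapped between the groups. MRP17 and RSM18 are the counterparts of bacterial S6 and S18, which form a pair in the platform, and RSM7 that of S7, which nucleates the head.

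These counts depended on the pair of replicates and on the scaling. The shares of all genes tested given above belong to the main fit, and those of the fits below are not given here. The counts below therefore do not tell a change of the 67 genes from one of all genes. With replicates 1 and 2 alone, 50 genes were lower and 5 higher, with a median log2 fold change of -0.25. With replicates 3 and 4 alone, 16 were lower and 20 higher, with a median of -0.03. Of the 25 falls, 16 were past the threshold and lower in each pair, among them the 6 named above and RSM19, which was at 22.2, 24.4, 26.7 and 24.2 CPM in the bypass cells. Of the 8 rises, 5 were higher in each pair, namely MRP10, MRP17, MRPL31, RSM10 and RSM7. A further 6 genes, MRP1, MRP7, MRPL1, MRPL3, MRPS35 and RSM28, passed the threshold in opposite directions in the pairs.
Leaving out replicate 3 or replicate 4 of wild-type G1 left 5 genes higher. With counts summed within the pairs, so that each group had 2 samples, 5 genes fell (MRPL10, MRPL27, MRPL37, MRPS18 and RSM19) and MRP10 rose. When the spike-in RNA set the scale, 13 genes were higher and 2 lower (MRPL27 and MRPS18), and the median over the 67 genes was 0.06 where that of all genes tested was 0.20. The spike-in share of the counts was 1.81% to 2.02% in the bypass cells and 2.09% to 2.37% in wild-type G1.

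**Figure D4:**
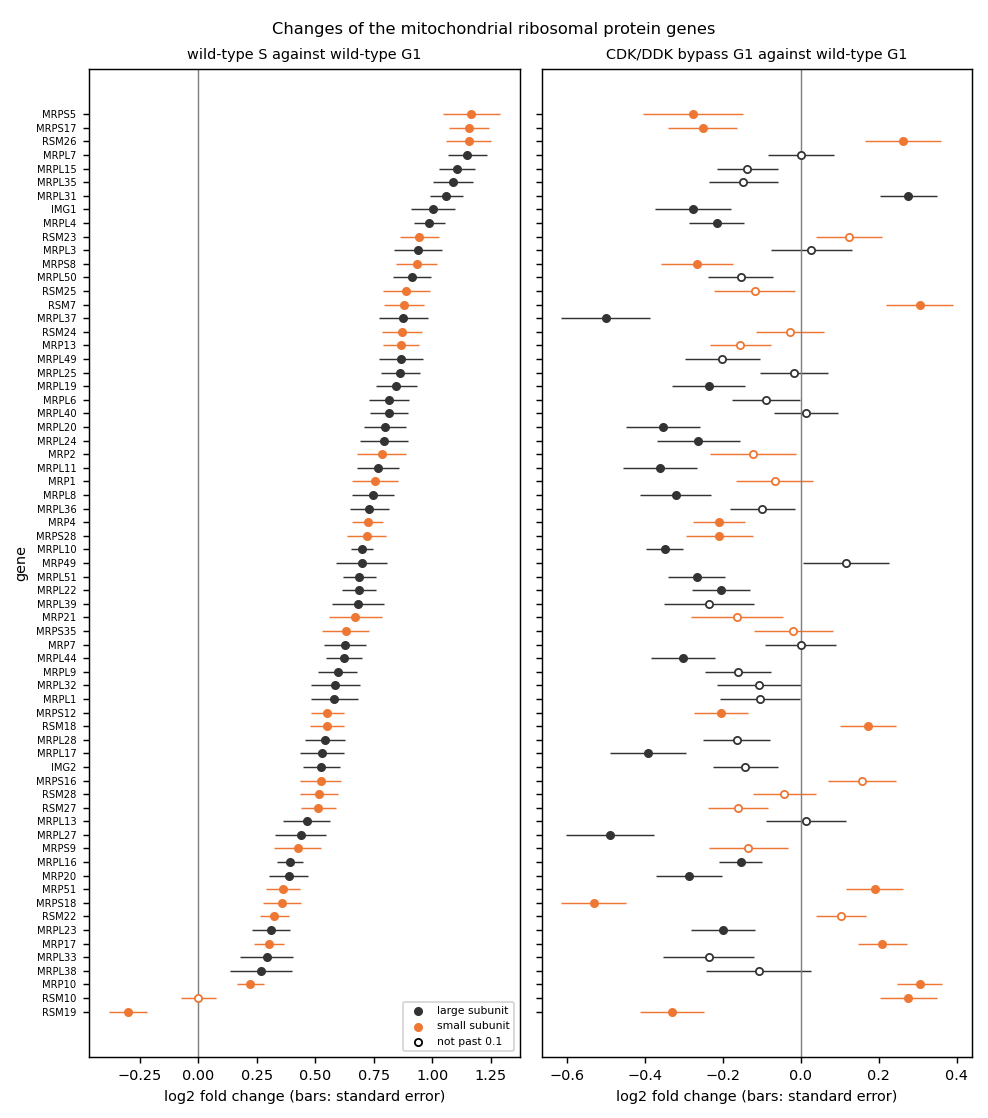
Log2 fold change (x axis) of the 67 genes (y axis, ordered by the change in wild-type S) in wild-type S against wild-type G1 on the left and in CDK/DDK bypass G1 against wild-type G1 on the right. Points are estimates and bars standard errors, with the large subunit in black, the small subunit in orange and genes not past an adjusted p of 0.1 open. On the left 65 points lie to the right of 0, and on the right 25 filled points lie below 0 and 8 above it. The comparisons share the wild-type G1 samples, and the axes differ in scale.

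Wild-type S was also compared directly with the bypass cells, since both replicate DNA. In wild-type S, 63 of the 67 genes were higher, where 41.5% of all genes tested were higher, with a median log2 fold change of 0.88 against -0.02. For 62 of them the replicates did not overlap, where the share of all genes tested was 40%. All 39 genes of the large subunit and 24 of the 28 of the small subunit rose. The largest differences were those of MRPS5 (2.72-fold, log2 fold change 1.44 ± 0.12 SE), MRPS17 (1.41 ± 0.09 SE), MRPL37 (1.38 ± 0.11 SE) and IMG1 (1.28 ± 0.10 SE). MRPS5 was at 34.8, 40.6, 39.2 and 38.5 CPM in the bypass cells, less than the lowest wild-type S replicate by a factor of more than 2.
The 4 genes that did not rise were all in the small subunit. RSM10 was lower in wild-type S by a log2 fold change of -0.28 ± 0.07 SE (edgeR adjusted p = 0.00355, 43.6% of all genes tested being lower), although the highest S replicate, at 93.9 CPM, was just above the lowest bypass replicate, at 93.3 CPM. RSM19 (0.03 ± 0.08 SE), MRP17 (0.09 ± 0.06 SE) and MRP10 (-0.08 ± 0.06 SE) did not pass the test. MRP10 passed it as lower when the library totals or the spike-in RNA set the scale (log2 fold change -0.14 and -0.23). For MRP10 the order of the groups was therefore wild-type G1 below the other groups, which did not differ beyond their spread on the TMM scale.
The mean CPM was highest in wild-type S for 64 of the 67 genes and lowest in the bypass cells for 51.

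In wild-type S, of the 27 genes from universal families 25 rose, and all of the 14 bacterial and the 25 mitochondria-specific ones, with medians of 0.70, 0.68 and 0.76. In the bypass comparison 16 of the 27 universal ones, 3 of the 14 and 6 of the 25 fell, where 28.5% of all genes tested fell, and the difference between families was not tested. The number or form of the motif went along with little difference among the 67 genes. The median in wild-type S against wild-type G1 was 0.70 for the 53 genes with the extended motif and 0.68 for the 14 without it, and 0.76 for the 13 genes with more than 1 site. RSM22, which lacks the motif, was at 70.9, 71.7, 67.1 and 66.0 CPM in wild-type G1 and at 97.7, 88.8, 77.9 and 81.2 CPM in wild-type S. It rose without overlap, and its log2 fold change of 0.32 ± 0.06 SE (edgeR adjusted p = 0.000373) was in the lower part of the range.

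Other genes with the motif were set beside them. Of 760 other genes tested with TGTANATA after the stop codon, 399 rose and 253 fell in wild-type S against wild-type G1, with a median of 0.20. Among them, 196 held the motif with the C before it. Of these 196, 135 rose and 30 fell, with a median of 0.47. Of 4758 genes without TGTANATA, 1808 rose and 2168 fell, with a median of -0.06. In the bypass cells the medians were -0.02 with TGTANATA, -0.03 with the C as well and -0.02 without TGTANATA. PUF3 itself averaged 16.9 ± 2.24 TPM (SD, n = 4) in wild-type G1 cells and 16.6 ± 1.76 TPM with the bypass, against 22.9 ± 1.73 TPM in wild-type S, with a log2 fold change from wild-type G1 of 0.59 ± 0.10 SE (edgeR adjusted p = 0.000134). HAP4, the regulated subunit of the Hap complex, rose by 0.56.

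**Figure D5:**
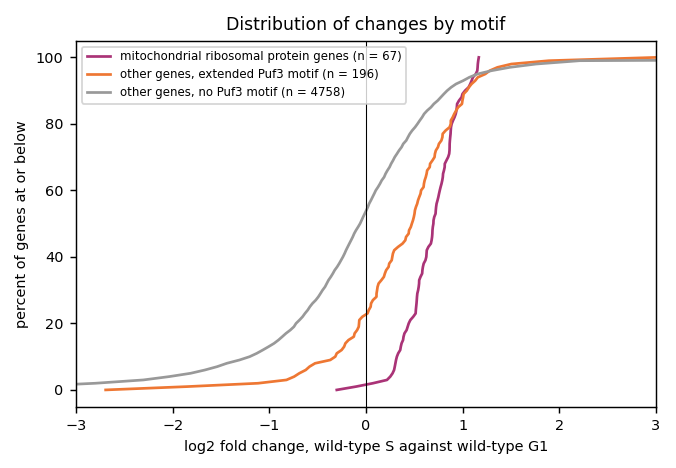
Percent of genes (y axis) at or below a given log2 fold change in wild-type S against wild-type G1 (x axis, shown from -3 to 3), for the 67 mitochondrial ribosomal protein genes (purple), 196 other genes with the extended Puf3 motif (orange) and 4758 other genes without a Puf3 motif (grey). The curves cross 50 percent at 0.70, 0.47 and -0.06. Other genes with TGTANATA but without the C are not drawn.

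The other genes of mitochondrial translation moved in the same direction in wild-type S where they passed the test, with some exceptions. All 11 genes of mitochondrial ribosomal proteins with other names rose against wild-type G1 (median 0.79), most of all MNP1, the counterpart of the stalk protein L7/L12, with a log2 fold change of 1.24 ± 0.12 SE. In the bypass cells EHD3 rose by 0.37, RTC6 changed by -0.21, and the other 9 did not pass the test. Of 9 translation factors 8 rose, led by the initiation factor IFM1 (1.23 ± 0.07 SE), and the exception was AIM23 (0.03 ± 0.08 SE). The ribosome recycling factor RRF1 had the largest fall of this list in the bypass cells (-0.48 ± 0.10 SE).
Of 13 mitochondrial aminoacyl-tRNA synthetases 10 rose, led by MSY1 for tyrosine (1.07 ± 0.10 SE), and MSF1 for phenylalanine fell (-0.37 ± 0.11 SE). Of 18 translational activators and messenger RNA factors 14 rose and 3 fell. PET494, an activator of COX3 translation, had the largest rise (1.68 ± 0.07 SE) and ATP22, an activator of ATP6 translation, the largest fall (-1.86 ± 0.06 SE). Of 6 assembly and rRNA modification factors 4 rose and 2 fell, and the fall of the methyltransferase MRM2 was the larger one (-0.68 ± 0.06 SE). Both subunits of the mitochondrial RNA polymerase, RPO41 and MTF1, rose.

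Other large complexes were measured in the same fit. The 137 cytosolic ribosomal protein genes had a median of 0.85 in wild-type S against wild-type G1, with 136 rising, and of -0.26 in the bypass cells, with 85 falling and 0 rising. The 31 nuclear genes of the respiratory chain had a median of 0.34 in wild-type S, with 28 rising and 2 falling, the larger fall being that of COX5B (-0.96 ± 0.10 SE), the hypoxic form of subunit 5, and of 0.02 in the bypass cells, with 12 rising and 7 falling. Differences between these lists and the 67 genes were not tested.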

How the data were processed

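The authors deposited raw counts of read pairs per gene for each of the 12 samples. Per the labels and the methods, libraries were made with a directional poly(A) kit after ERCC spike-in RNA was added, reads of 42 bases were aligned to sacCer3 with STAR 2.7.10a, and HTSeq 2.0.1 counted them by strand, leaving out reads with several positions. Lines that name no gene held 9.28% to 11.5% of the total and were left out. Counts were tested with edgeR 4.0.16 (R 4.3.3): filterByExpr with a minimum count of 10 (5662 genes kept), TMM, and glmQLFTest over 3 groups, called at a Benjamini-Hochberg adjusted p below 0.1. Standard errors were derived from the size of each log2 fold change and its F statistic. TPM were computed from counts and gene lengths. On simulated counts of wild-type S against wild-type G1 (5662 genes), 100 of 100 genes changed by 1 on the log2 scale and 96 of 100 changed by 0.5 were recovered, with 21 unchanged genes called. The simulated replicates were independent and few genes were changed. In the real data replicates formed pairs and most genes were called, so these numbers do not show how the test did there. Sequences were read from R64 with Python 3.11.15. Alternatives were DESeq2 1.42.0, RLE, library and spike-in totals, other filters and thresholds, the replicate block, fits of 2 groups, pairs of replicates and leaving out each replicate. In each comparison the 6 largest rises and falls without overlap were eligible to be named, with the 3 highest and 3 lowest genes by level and the extremes of each list. Other genes were named after their values were seen. The genes and lists were chosen with earlier results of these data known.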

Additional observations from a re-analysis of the deposited data

Results flagged for a closer look

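Among the 23 genes named by the rule, 69 groups of 4 replicates were tested for a single replicate far from the others, and 4 were found where chance gives about 1 in 20, or 3.45. That number assumes independent replicates, but replicates formed pairs, most clearly in wild-type G1, where a single one can hardly stand alone. All 4 were in the bypass cells, whose pairs stood closest together. MRPL20 was at 31.4 CPM in replicate 2 and at 29.3 to 29.5 CPM in the others. MRPS12 was at 96.8 CPM in replicate 2 and at 105 to 107 CPM in the others. MRPS17 was at 38.2 CPM in replicate 1 and at 41.9 to 42.4 CPM in the others. MRPS28 was at 40.7 CPM in replicate 1 and at 43.2 to 43.4 CPM in the others.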

How the results depend on the processing

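The counts in this section stand without the shares of all genes tested in the same fits. The rise in wild-type S against wild-type G1 kept 64 to 65 genes higher and 1 lower when each replicate was left out in turn, and 41 and 0 in a test against a log2 change of 0.5. Against the bypass cells these were 62 to 64 higher and 1 to 2 lower (2 without wild-type S replicate 1), 2 lower with library or spike-in totals, and 0 lower against 0.5. In the bypass cells against wild-type G1, leaving out replicates gave 5 to 8 higher and 17 to 32 lower. Spike-in totals gave 13 and 2, summed pairs 1 and 5, replicates 1 and 2 alone 5 and 50, replicates 3 and 4 alone 20 and 16, and a test against 0.5 gave 0 and 0. The log2 ratio of the summed level was 0.48 and 0.58 in wild-type S against wild-type G1 and the bypass cells in TPM, 0.68 and 0.77 in CPM and, against wild-type G1, 0.75 per spike-in count. In the bypass cells against wild-type G1 it was -0.10 in TPM and 0.12 per spike-in count. The cause was not tested. The motif on the other strand, a count added after seeing the data, was found in 12 genes. With the replicate block 8 genes rose and 30 fell in the bypass comparison, 65 and 1 for wild-type S against wild-type G1 and 63 and 1 against the bypass cells. Correlations of same-numbered deviations were 0.058 to 0.20 for the bypass cells and wild-type G1, not all above 0.1, so the numbers were not taken to pair single samples. For these groups the sign of the correlations followed the pairs of replicates, however. Deviations from a group mean cancel within the group, so these values are not independent and do not show that pairs were shared. Replicates of the same pair correlated at 0.058 to 0.20 and those of different pairs at -0.22 to -0.052. For wild-type S and wild-type G1 these were 0.055 to 0.19 and -0.17 to -0.034. For wild-type S and the bypass cells all values lay between -0.051 and 0.061. The main fit had no term for the pairs. DESeq2 gave the same counts as edgeR in all 3 comparisons.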
